A study of Homo sapiens with 4 samples.

Results

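The vascular endothelial growth factors VEGFA, VEGFB and VEGFC, placental growth factor (PGF), the receptor neuropilin 1 (NRP1) and the vasodilator peptide adrenomedullin (ADM) were examined in MDA-MB-361 human breast cancer cells expressing shRNAs against dermcidin (DCD). All probe sets whose platform annotation gives 1 of these 6 symbols as the only gene were taken, which gave 13 probe sets, out of 41091 single-gene probe sets for 19775 genes. RNA from 4 cultures was hybridized to Affymetrix U133 Plus 2.0 chips, 1 chip per culture. MDA-MB-361 is an established breast cancer cell line, and all 4 cultures were lentiviral derivatives of it. The control carried the pLKO vector without a DCD hairpin, and the other 3 (clone 1, clone 2 and clone 3 in the sample labels) each carried a different DCD hairpin in the same vector. They are called IBC-I, IBC-II and IBC-III here, on the assumption that the study's names follow the clone numbers, which the sources used here do not state. The comparison asks which genes differ from control cells when DCD is targeted, and each of the 3 shRNA arrays was compared pair-wise with pLKO.

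VEGFA is a secreted ligand that drives the growth and permeability of blood vessels through the receptor tyrosine kinases FLT1 and KDR on endothelial cells. PGF and VEGFB bind FLT1, VEGFC acts mainly on lymphatic vessels through FLT4, and NRP1 is a coreceptor shared by VEGFs and class 3 semaphorins. Adrenomedullin acts on the same vessels through the receptor CALCRL paired with RAMP2 or RAMP3. VEGFA and ADM are both classical targets of the hypoxia-inducible factors, which bind a short core motif, and both have short-lived mRNAs.

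That core motif was looked for as ACGTG or GCGTG on both strands in the 250 bases before each gene start, a window in which 43.2% of 35116 annotated starts in RefSeq (GRCh38.p14) hold at least 1 match. Of the 6 genes, 4 were matched to this promoter table (ADM, PGF, VEGFB and VEGFC), so the promoters of VEGFA and NRP1 were not scanned. The promoters of ADM and of 2 VEGF ligands are shown because, after quantile normalization, ADM was lower than pLKO on every shRNA array while VEGFB and VEGFC were not (VEGFB was lower on all 3 as deposited and with median scaling), and capitals mark the motif. The windows are chr11:10304823-10305072 on the plus strand for ADM, chr11:64234334-64234583 on the plus strand for VEGFB and chr4:176792923-176793172 on the minus strand for VEGFC.
ADM: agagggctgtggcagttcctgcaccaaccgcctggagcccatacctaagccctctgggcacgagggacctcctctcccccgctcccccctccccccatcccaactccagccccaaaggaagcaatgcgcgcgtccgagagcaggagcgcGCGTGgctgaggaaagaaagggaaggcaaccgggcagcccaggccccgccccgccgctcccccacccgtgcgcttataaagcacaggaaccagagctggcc
VEGFB: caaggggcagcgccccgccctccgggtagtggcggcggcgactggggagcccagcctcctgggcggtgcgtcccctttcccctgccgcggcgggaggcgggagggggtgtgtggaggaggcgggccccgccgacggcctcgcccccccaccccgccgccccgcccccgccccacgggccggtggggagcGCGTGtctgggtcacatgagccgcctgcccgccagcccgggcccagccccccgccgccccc
VEGFC: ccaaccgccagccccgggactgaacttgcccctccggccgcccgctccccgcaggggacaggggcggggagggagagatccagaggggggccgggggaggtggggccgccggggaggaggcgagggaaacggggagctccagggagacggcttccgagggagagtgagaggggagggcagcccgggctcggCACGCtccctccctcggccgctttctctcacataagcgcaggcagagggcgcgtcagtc
Each of the 3 windows holds 1 match, beginning 101 bases before the start of ADM, 61 before that of VEGFB and 59 before that of VEGFC. PGF has 2 annotated starts, with 1 match in the window of one and 0 in the other. A match is a string of letters and not a measured binding site.

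Some properties of the arrays bear on every value. DCD, the targeted gene, is read by 1 probe set, with a deposited intensity of 2 in pLKO and of 7, 6 and 2.7 on the shRNA arrays. The control was thus the lowest of the 4, but all 4 lay under the floor of 16 used here, so the knockdown could not be checked on these arrays. The study reported lower DCD mRNA by RT-PCR, and lower DCD protein by immunocytochemistry and immunoblotting, in its shRNA cells. The 3' to 5' ratio of the ACTB control probe sets is a sign of RNA degradation or incomplete labelling when high. It was 5.29 for pLKO, 9.67 for IBC-I, 2.58 for IBC-II and 42.6 for IBC-III. The GAPDH ratio was 1.09, 2.18, 1.02 and 13.1 in the same order, so both ratios were above those of pLKO in IBC-I and IBC-III. Between 39.3% and 55.1% of probe sets lay under an intensity of 16, with the highest share in IBC-III. The deposited intensities were not equalized between arrays (medians 13.4 to 24.7), so they were quantile normalized, values under 16 were set to that floor, and differences are given as log2 of the shRNA array over pLKO. Of the 13 probe sets, 9 passed a filter on low mean intensity and entered the set of 27307 tested probe sets. All 8 luminal epithelial markers were above 16 on every array. The summed intensity of 10 endothelial markers was 203 to 283. Of these, 4 (PECAM1, TEK, CD34 and ROBO4) were at or above 16 on every array, and CDH5 and TIE1 were under it on all 4 arrays. Of 7 fibroblast markers 3 were at or above 16 on every array, and of 4 leukocyte markers 1. The part of these marker genes in the results below was not tested. In these bulk RNA samples, fewer cells expressing a gene and less RNA per cell cannot be told apart. The control has a single array that enters all 3 comparisons, and the number of arrays limits the precision.

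VEGFA had the widest difference of the VEGF ligands. Its probe set 210512_s_at had a deposited intensity of 2022.5 in pLKO, and of 142, 224.7 and 440.3 on the IBC-I, IBC-II and IBC-III arrays. All 3 shRNA arrays were below the control before any normalization, by 14.2-fold, 9.00-fold and 4.59-fold. The probe set 212171_x_at read 108.7, 186.1 and 121.6 on the same 3 arrays against 593.7 in pLKO, which is 5.46-fold, 3.19-fold and 4.88-fold lower. The probe set 210513_s_at read 52, 74.9 and 107 against 183.4, again with every shRNA array under the control, and the ratios were narrower at 3.53-fold, 2.45-fold and 1.71-fold. The probe set 211527_x_at read 13.6, 31.2 and 30.8 against 227.9, and its value in IBC-I was under the floor. Thus the 4 probe sets of VEGFA shared the order of pLKO above every shRNA array as deposited, and they differed among themselves in how far apart the arrays were. Probe sets with the ending x_at can hold probes that also match other transcripts, which holds for 2 of the 4.

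**Figure D1:**
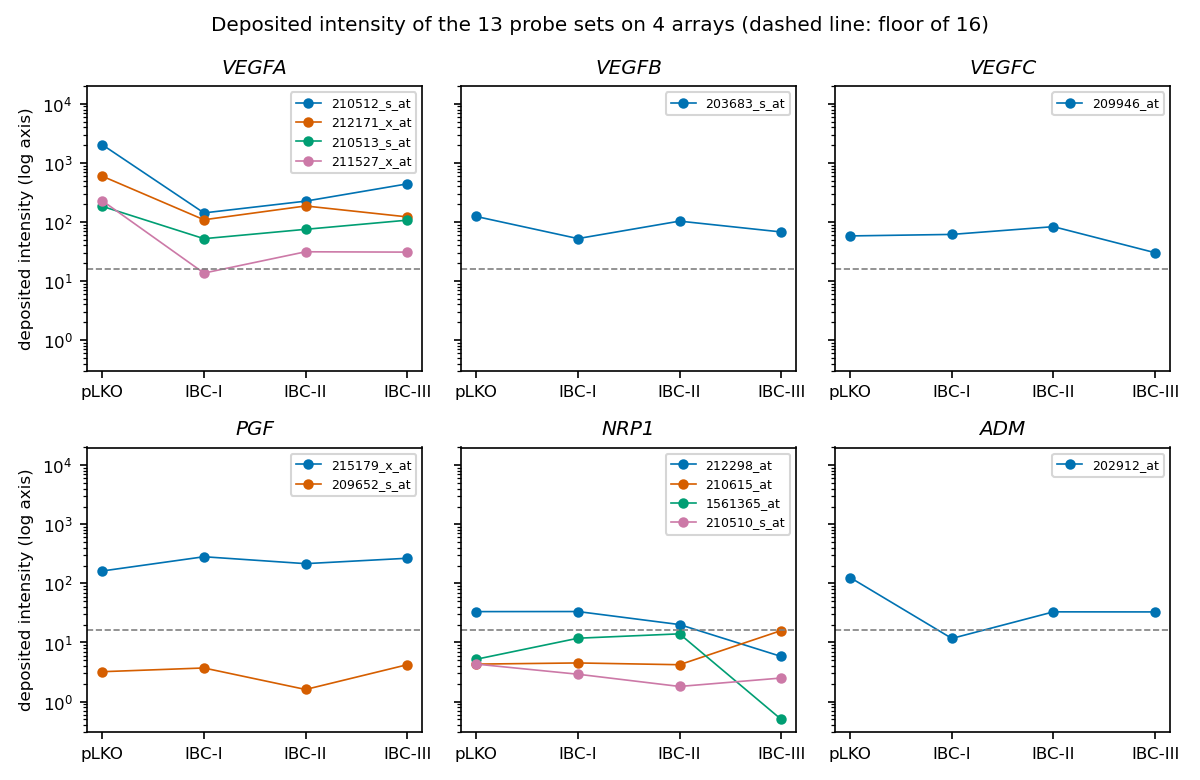
Deposited intensity (log axis, linear intensity units) of each of the 13 probe sets on the pLKO, IBC-I, IBC-II and IBC-III arrays, 1 panel per gene. Each point is 1 array, lines only connect the values of 1 probe set, and the dashed line is the floor of 16. All 4 VEGFA probe sets and the ADM probe set are highest in pLKO, and 3 of the 4 NRP1 probe sets lie under the floor on all arrays.

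After quantile normalization VEGFA stayed well below pLKO in IBC-I and IBC-II, whereas the differences in IBC-III became smaller. For 210512_s_at the log2 difference was -3.13 for IBC-I, -3.42 for IBC-II and -0.66 for IBC-III. Only 0.0403% and 0.0439% of tested probe sets had a lower difference in IBC-I and IBC-II, against 30.4% in IBC-III. For 212171_x_at the difference was -1.82, -1.97 and -0.89 (3.53-fold, 3.92-fold and 1.86-fold lower). For 211527_x_at, the IBC-I value reached the floor and was at least 11.1-fold lower than pLKO, and the other arrays were 7.47-fold and 3.63-fold lower. This was the VEGFA probe set with the largest difference in IBC-III, where 6.95% of tested probe sets had a lower one. For 210513_s_at the difference was -1.36 for IBC-I, -1.49 for IBC-II and 0.52 for IBC-III, the last being 1.43-fold above pLKO. The median over the 4 VEGFA probe sets was -2.48 for IBC-I, -2.44 for IBC-II and -0.78 for IBC-III, and the median over all tested probe sets lay between -0.0019 and 0.

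The rank of each VEGFA probe set on its own array needs no normalization. Quantile normalization is itself set by these ranks, so they restate the order of arrays that it gave and are no separate support for it. The probe set 210512_s_at was brighter than 99.1% of probe sets on the pLKO array, and than 90.1% on that of IBC-I, 88.0% on that of IBC-II and 98.5% on that of IBC-III. For 211527_x_at the share was 90.9% in pLKO against 40.2%, 56.1% and 73.3%. For 210513_s_at the rank in IBC-III, at 92.2%, was above the 88.8% of pLKO, whereas in IBC-I and IBC-II it was 75.6% and 74.1%. The IBC-III array therefore stood closest to pLKO for each of these probe sets by rank, and it also had the largest 3' to 5' ratios of the 4 arrays. The part of RNA quality in this was not tested.

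Among the other ligands, the direction of VEGFB in IBC-III depended on the scaling: it was lower than pLKO on all 3 shRNA arrays as deposited and with median scaling, but not with quantile normalization. Its probe set read 123.5 in pLKO as deposited, and 52.2, 103.1 and 67.6 in the IBC-I, IBC-II and IBC-III arrays. The largest of these differences was 2.37-fold. After quantile normalization VEGFB was 1.75-fold and 1.46-fold lower in the first 2 of these and 1.27-fold higher in the last, with a mean log2 difference of -0.34 ± 0.60 (SD, n = 3). VEGFC read 61.4, 83.1 and 30.1 against 57.9, so that the control lay among the shRNA arrays. The normalized differences of VEGFC, 0.44, 0.17 and -0.06, had the mean closest to 0 of the 9 tested probe sets, and this mean of 0.19 ± 0.25 (SD, n = 3) became -0.11 in the values as deposited.

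PGF, the placental ligand of FLT1, was the member that lay above pLKO. Its probe set 215179_x_at read 162.3 in pLKO against 282.8 for IBC-I, 216 for IBC-II and 266.6 for IBC-III. Every shRNA array was above the control as deposited, by 1.74-fold, 1.33-fold and 1.64-fold. After normalization it was higher by 2.60-fold (IBC-I), 1.01-fold (IBC-II) and 4.23-fold (IBC-III), so IBC-II was level with the control. Its second probe set, 209652_s_at, read between 1.6 and 4.2, under the floor on all 4 arrays, and gave no difference. Thus 1 of the 2 PGF probe sets gave a measured difference, and its ending x_at marks it as one that can hold shared probes.

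**Figure D2:**
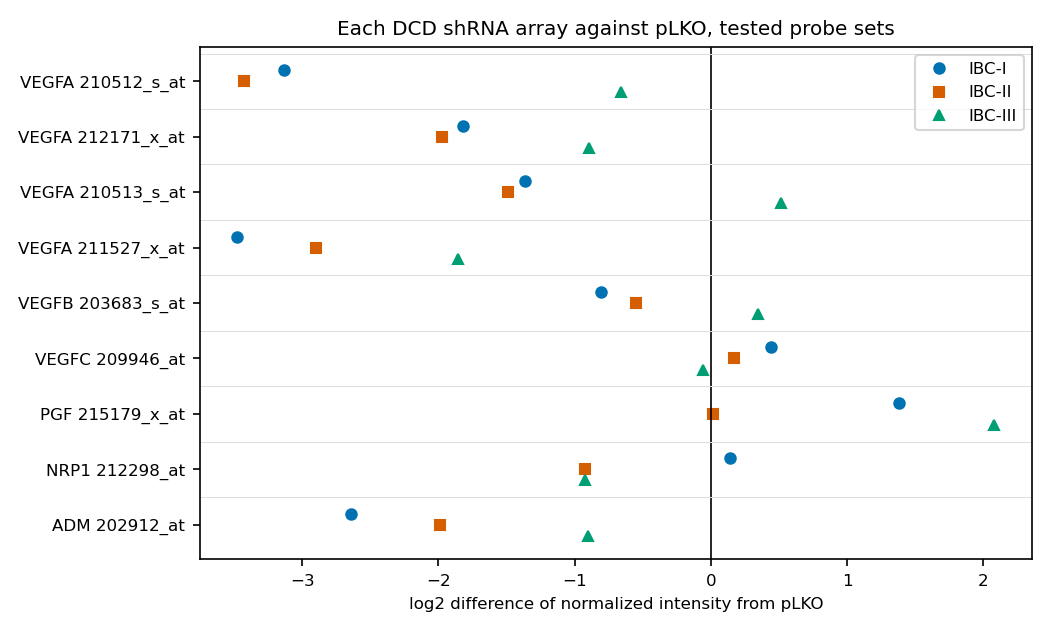
Log2 difference of normalized intensity from pLKO (horizontal axis) for the 9 tested probe sets, with 1 point per shRNA array, and the vertical line at no difference. VEGFA 211527_x_at lies at -3.48, -2.90 and -1.86 and ADM at -2.64, -1.99 and -0.90, while PGF lies on the line or above it and VEGFB on both sides.

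The receptor NRP1 was near the lower limit of these arrays. Its brightest probe set, 212298_at, read 33.3 in pLKO against 33.4 for IBC-I, 20.1 for IBC-II and 5.8 for IBC-III. IBC-I and the control were level (1.10-fold higher in IBC-I after normalization), and IBC-II and IBC-III were at the floor and so at least 1.90-fold lower. The mean log2 difference was -0.57 ± 0.61 (SD, n = 3), a value that the floor limits. The other 3 probe sets of NRP1, 210615_at, 1561365_at and 210510_s_at, read between 0.5 and 15.9 and did not pass the filter.

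ADM, like 3 of the VEGFA probe sets, lay under pLKO on every shRNA array. Its single probe set read 125.4 in pLKO as deposited, against 11.7 for IBC-I, 33 for IBC-II and 32.9 for IBC-III. The control was above all 3 shRNA arrays, by at least 7.84-fold for IBC-I, whose value was under the floor, and by 3.80-fold and 3.81-fold for the others. After normalization ADM reached the floor in IBC-I, hence at least 6.23-fold under pLKO, with IBC-II 3.97-fold and IBC-III 1.87-fold lower. In IBC-I 0.154% and in IBC-II 0.355% of tested probe sets had a lower difference, against 23.8% in IBC-III. By rank, ADM was brighter than 84.4% of probe sets in pLKO and than 37.0%, 57.5% and 74.8% on the shRNA arrays in their order. Over the 3 differences with the floor of 16, the ADM probe set lay closest to VEGFA 212171_x_at (Euclidean distance 0.82 on the log2 scale). This distance depends on the floor, which ADM reached in IBC-I, and the comparisons share the pLKO array.

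**Figure D3:**
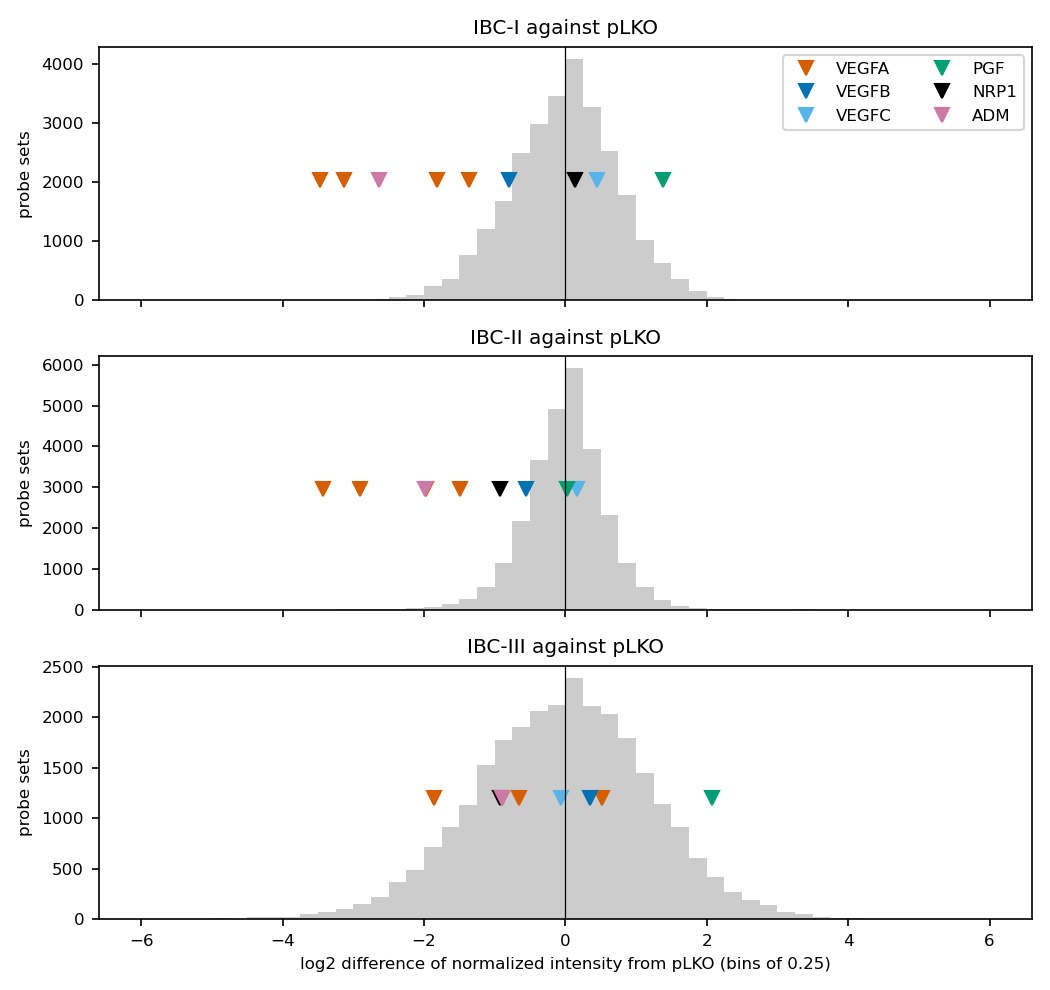
Number of tested probe sets (grey bars, bins of log2 difference) for each shRNA array against pLKO, with triangles for the 9 probe sets of the VEGF family, NRP1 and ADM, whose height carries no value. VEGFA and ADM lie in the lower tail for IBC-I and IBC-II, while in IBC-III, where the SD over all tested probe sets was 1.23 against 0.769 and 0.577, only 1 VEGFA probe set was past 3-fold lower.

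Counted together, 4 of the 9 tested probe sets lay under pLKO in all 3 comparisons, against 20% of all tested probe sets. Taken by array, 6 were lower for IBC-I (background 49%), 7 for IBC-II (background 47.7%) and 6 for IBC-III (background 50.1%). Lower in all 3 were 3 of the 4 VEGFA probe sets and ADM. Counting any difference above 0, that of PGF was the 1 higher in all 3, by 1.01-fold in IBC-II, against a background of 19.4%. With the values as deposited 6 were lower, against 19.5%, and 1 higher, against 9.94%, and with median scaling 6 were lower, against 24.8%, and 1 higher, against 13.9%. The median difference of the 9 was -1.36 for IBC-I, -1.49 for IBC-II and -0.66 for IBC-III. At least 3-fold lower in every comparison was 1, VEGFA 211527_x_at, against 0.179% of all tested probe sets, and 0 were at least 3-fold higher in every comparison, against 0.0366%. For each array alone, at least 3-fold lower were 4 for IBC-I (background 2.41%), 4 for IBC-II (background 0.824%) and 1 for IBC-III (background 10.2%). The 4 of IBC-I and of IBC-II were identical, VEGFA 210512_s_at, 212171_x_at and 211527_x_at with ADM, and 0.366% of all tested probe sets were at least 3-fold lower in both. Probe sets of VEGFA read 1 gene and are not independent of each other. At least 3-fold higher were 0 for IBC-I (background 1.75%), 0 for IBC-II (background 0.571%) and 1, that of PGF, for IBC-III (background 8.76%).

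limma, fitted to the 3 shRNA arrays against the lone pLKO array with Benjamini-Hochberg adjustment over all tested probe sets, called 0 of the 9, against 0% of all tested. At an unadjusted p under 0.05 it called 1 lower (VEGFA 211527_x_at, against 0.458% of all tested) and 0 higher (against 0.297%). At that threshold the methods' t-test called 2 lower (212171_x_at and 211527_x_at of VEGFA, against 3.94%) and 0 higher (against 4.56%), and 0 after adjustment. The mean log2 difference was -2.74 ± 0.82 (SD, n = 3) for VEGFA 211527_x_at with a limma standard error of 0.79. It was -2.40 ± 1.52 for 210512_s_at with a standard error of 1.08, -1.56 ± 0.58 for 212171_x_at with 0.72, and -1.84 ± 0.88 for ADM with 0.81. The means of 211527_x_at and ADM hold an IBC-I value at the floor. For each of the 9 the adjusted limma p was 1.00. Hence none of the differences passed the adjusted test. In simulated data at the observed spread limma also called none of the changed probe sets, so 0 calls cannot tell change from no change. With 3 arrays against 1, an exact two-sided permutation test cannot go below p = 0.25. Nothing in the labels says that the arrays of a group are independent cultures of one line, so these p-values measure only the spread between arrays with different hairpins.

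The IBC-III array decided several of these values. Without it, 6 of the 9 probe sets were lower in both remaining comparisons (all 4 of VEGFA, VEGFB and ADM), against 30.1% of all tested probe sets. At least 3-fold lower in both were 4, against 0.502%. The mean log2 difference of VEGFA 210512_s_at became -3.34 and that of ADM became -2.51. For the other VEGFA probe sets the mean became -1.94 (212171_x_at), -1.50 (210513_s_at) and -3.41 (211527_x_at). The limma fit without IBC-III left 1 residual degree of freedom, and its calls are not given here.

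The scaling of the arrays moved IBC-III values of VEGFA, VEGFB and ADM. For VEGFA 210512_s_at the difference in IBC-III was -0.66 with quantile normalization, -1.58 with each array scaled to the same median and -2.20 as deposited. For ADM it was -0.90, -1.31 and -1.93 in the same order. The median difference of all tested probe sets in IBC-III was -0.0019 with quantile normalization, -0.36 with median scaling and -0.91 as deposited, so both stayed under it in each. VEGFA 210513_s_at in IBC-III was 0.52, -0.16 and -0.78, and VEGFB was 0.35, -0.25 and -0.87, so both turned from above to below pLKO with the scaling, while lying above the median of all tested probe sets in each. In IBC-I the 4 VEGFA probe sets and ADM were lower than pLKO by all 3 scalings, as they were in IBC-II.

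**Figure D4:**
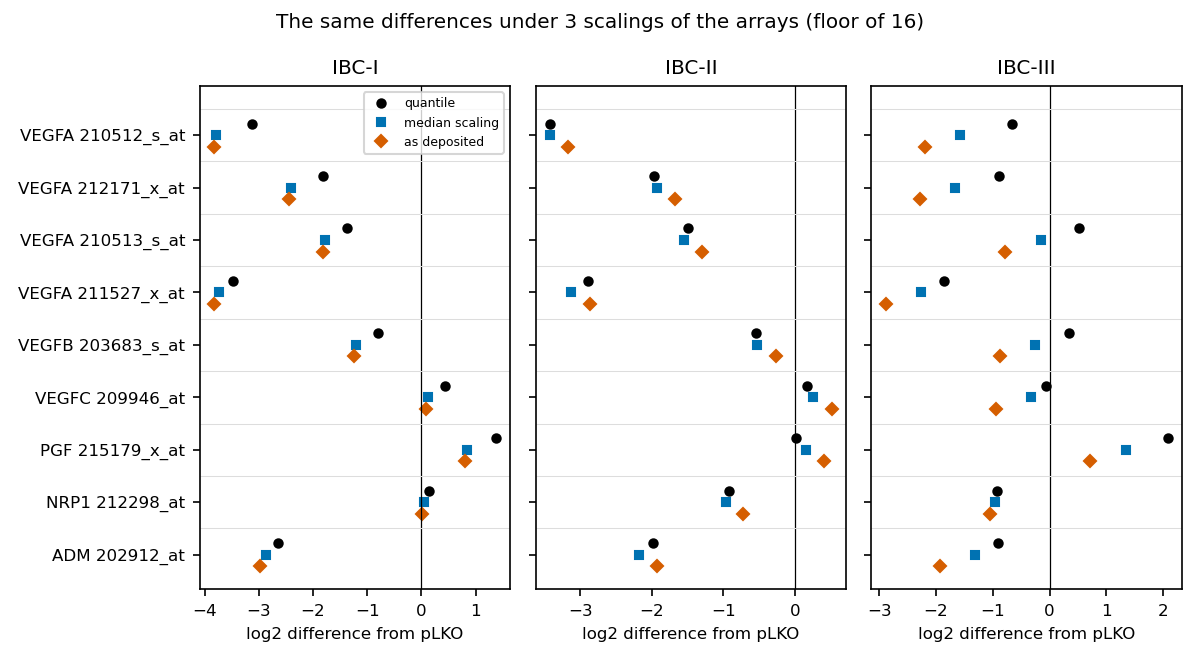
Log2 difference from pLKO (horizontal axis) of the 9 tested probe sets in IBC-I, IBC-II and IBC-III under quantile normalization (circles), scaling to a common median (squares) and no scaling (diamonds), all with the floor of 16. In IBC-III, VEGFA 210513_s_at and VEGFB lie right of the line of no difference only with quantile normalization.

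The genes around these ligands were taken from lists of the pathway, with each gene read by its brightest probe set. Of their tested members, limma called 0 at an adjusted p under 0.05 and 0 at an unadjusted p under 0.05. Of all tested probe sets it called 0% at the adjusted threshold, and 0.458% lower and 0.297% higher at the unadjusted one. For so few genes 0 calls is near these shares. The methods' t-test called 0 after adjustment, and its unadjusted calls among these genes are not given here. None was 3-fold or more from pLKO in 1 direction on all 3 arrays, against 0.179% lower and 0.0366% higher of all tested probe sets. Of all 12728 genes tested in this way, 21.3% were lower and 18.8% higher in all 3 comparisons, and their median difference was 0.01 for IBC-I, 0 for IBC-II and -0.11 for IBC-III. As deposited, the shares were 20.4% and 7.24%, and with median scaling 27.2% and 11.8%. Medians of a list are given in this order of arrays. Members that the counts below single out beyond the 4 brightest of a list were named after their values were seen.

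Of the list of VEGF receptors and further ligands, 4 genes were tested (VEGFD was not analysed here), and 0 were lower and 2 higher (KDR and FLT4) than pLKO on all 3 arrays, with medians of 0.61, 0.11 and 0.75. As deposited, 1 was lower (FLT1) and 2 were higher (KDR and NRP2). KDR, the main signalling receptor of VEGFA, read 21.1, 25.9 and 21 against 12.9 in pLKO, all close to the floor, and FLT4, the VEGFC receptor, read 29.8, 38 and 15.9 against 16.9. FLT1, the receptor of PGF and VEGFB, had log2 differences of -0.94, -0.53 and 0.62. NRP2, the second neuropilin, read 54, 19 and 21.3 against 18.5 in pLKO by 1 of its 11 probe sets. Its differences were 1.76, -0.11 and 0.87, with 1 array at the floor and the control close to it. Of the semaphorins and plexins that share neuropilins, 7 of 13 genes were tested, and 2 were lower (PLXNA3 and PLXND1) and 1 higher (PLXNA1) on all 3 arrays, with medians of 0.01, -0.11 and -0.28, and as deposited 3 were lower and 0 higher. PLXND1, a receptor for class 3 semaphorins on vessels, read 114.6, 142.7 and 30.9 against 199.7 in pLKO. SEMA3C and SEMA3F, secreted ligands of the neuropilins, had differences of 0.43, 1.03 and -0.28 and of 1.17, -0.11 and 1.35.

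Of the 7 genes for the receptors and processing of adrenomedullin, 5 were tested. Of these, 2 (ADM2 and RAMP3) were lower on all 3 arrays by each of the 3 scalings and 0 were higher, with medians of -0.11, 0.06 and -0.10. ADM2, the related peptide intermedin, read 9.6, 38.1 and 40.5 against 90.9 in pLKO, with log2 differences of -2.21 (at the floor in IBC-I), -1.37 and -0.10. RAMP3 differed by -0.11, -0.49 and -0.09. PAM, the enzyme that amidates adrenomedullin, differed by 0.13, 0.06 and -0.25, and the scavenging receptor ACKR3 by 1.25, 1.52 and -0.26. CALCRL and RAMP2 were under the floor on all 4 arrays.

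Genes of oxygen sensing and of mRNA decay, known to act on VEGFA and ADM, showed no common direction. Of 9 tested genes of oxygen sensing, 1 (EGLN1) was lower and 3 (HIF3A, HIF1AN and VHL) were higher than pLKO on all 3 arrays, with medians of 0.16, 0.23 and 0.03. As deposited, 1 (EGLN3) was lower and 0 were higher. HIF1A, the oxygen-regulated subunit, whose control acts mainly on the protein, read 1851 in pLKO against 1167, 2048 and 1734 on the shRNA arrays, with differences of 0.14, -0.21 and 1.42. EPAS1, its relative, differed by -0.29, 0.14 and 0.13. EGLN1, an oxygen-sensing hydroxylase, differed by -0.37, -0.15 and -0.76, and HIF1AN, which hydroxylates HIF at another residue, by 0.88, 0.64 and 0.94. Of 7 tested proteins that bind AU-rich elements, 1 was lower (ZFP36) and 2 were higher (HNRNPD and TIA1), with medians of 0.33, 0.04 and 0.20, and as deposited ZFP36 was lower and 0 were higher. The stabilizing protein ELAVL1 differed by 0.36, 0.04 and -1.32 and the decay factor ZFP36L1 by 0.33, -0.33 and 1.36.

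**Figure D5:**
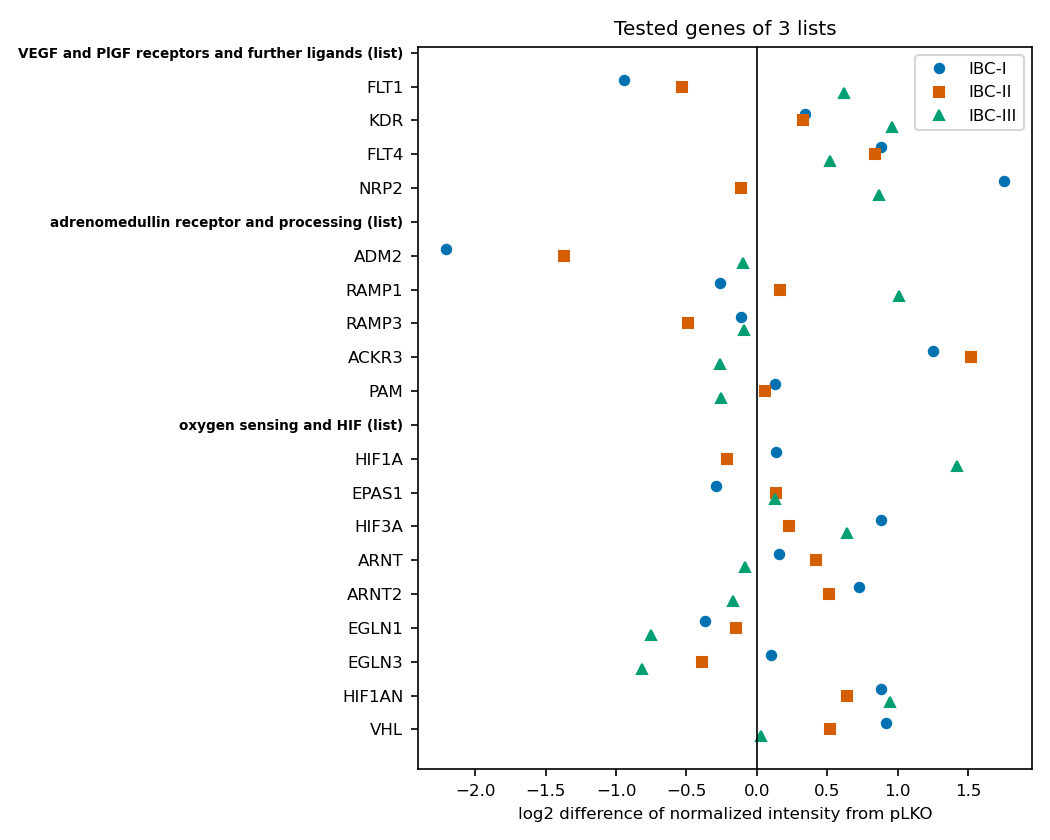
Log2 difference of normalized intensity from pLKO (horizontal axis) for the tested genes of the receptor, adrenomedullin and oxygen-sensing lists, each by its brightest probe set, with 1 point per shRNA array. ADM2 lies at -2.21, -1.37 and -0.10, and HIF1A on both sides of the line of no difference.

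Of the other angiogenic ligands, 11 of 16 were tested, and 2 were lower (PDGFC and TYMP) and 5 higher (ANGPT1, PDGFB, HGF, ANG and EFNA1) on all 3 arrays, with medians of 0.67, 0.18 and 0.09. As deposited, 3 were lower and 2 higher, ANGPT1 and ANG. Several of the genes named here lay near the floor. HGF read 14.9 to 28.8, with differences of 0.12, 0.14 and 0.09, and ANG read 19 to 30.8. ANGPT1 was at the floor on 1 array and TYMP on 2. PDGFB, a ligand that recruits pericytes, was 2.95-fold, 1.79-fold and 2.02-fold higher, and EFNA1, a membrane ligand of Eph receptors, was 1.59-fold, 1.55-fold and 1.67-fold higher. CCN1, a matricellular ligand of integrins, spread widely, with differences of 2.44, -0.25 and -1.75. Of 6 tested inhibitors of angiogenesis, 3 were lower (THBS1, SERPINF1 and VASH1) and 0 higher, with medians of -0.27, -0.33 and -0.34, and as deposited 3 were lower (SERPINF1, COL18A1 and VASH1) and 0 higher. THBS1, a secreted inhibitor, was 1.67-fold, 1.05-fold and 1.05-fold lower. Of the 7 genes that process VEGFC or VEGFA, 2 were tested, CCBE1 and the protease FURIN, and each lay on both sides of pLKO, while CCBE1 was lower on all 3 arrays as deposited and with median scaling.

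Among all 12728 genes by their brightest probe set, the one whose 3 differences were closest to those of VEGFA 210512_s_at was BHLHE40, a transcription repressor, at a Euclidean distance of 0.37 on the log2 scale. BHLHE40 read 186 in pLKO and 6.1, 8.4 and 61.4 on the shRNA arrays. It was at the floor for IBC-I and IBC-II, so at least 9.13-fold lower than pLKO on both, and 1.30-fold lower on the IBC-III array. The next were RBCK1, part of a ubiquitin ligase complex, at 0.92, CLGN, a chaperone, at 1.14 and KLHDC7B at 1.28. Nearest to ADM were ASS1, an enzyme of arginine synthesis, at 0.44, FJX1 at 0.49, the collagen receptor MRC2 at 0.56 and RNF145 at 0.58. ADM was at the floor in IBC-I. FJX1 and RNF145, which read 10.7 and 9.8 in IBC-I, lay there too, and MRC2 read 16.6 in IBC-I, close to the floor. The floor thus enters the distances of these 3 genes. ASS1 read 255.1, 566.3 and 445.3 against 2132.7 in pLKO, which gave 5.01-fold, 4.69-fold and 1.62-fold lower values after normalization. The 4 genes closest to NRP1 212298_at, GPSM2, LOC339666, ZBTB47 and LINC01933, lay at distances of 0.039 to 0.12 from it. NRP1 was at the floor in IBC-II and IBC-III, and LOC339666 and LINC01933 lay there too, so the floor enters these distances. Each distance is over 3 comparisons that share 1 control array and is a description.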

How the data were processed

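Gene expression was profiled on 4 Affymetrix U133 Plus 2.0 chips. The deposited values are linear intensities, 1 per probe set and array. The study names dChip for its analysis, and what made the deposited intensities was not given in the sources used here. Intensities of 0 were set to 0.1, log2 values were quantile normalized with 62 control probe sets that were then left out, values under 16 were set to 16, and of 54613 probe sets the 27307 whose mean reached the median probe set's entered the tests. Only probe sets that the platform annotation gives to a single gene were named. limma 3.58.1 (R 4.3.3) was fitted to both groups with 2 residual degrees of freedom and Benjamini-Hochberg adjustment, assuming that the lone pLKO array varies like the shRNA arrays. The study's rule (3-fold or more in every pair-wise comparison) was also used. So was the methods' t-test, taken here as a paired test of the 3 log2 differences. The study lists a paired t-test among its general statistics and does not state its use on the arrays. Scripts were tested on simulated data, where limma at the observed spread called none of the changed probe sets.

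Each gene was represented by its brightest probe set. All probe sets of the 6 genes were named, with up to 4 brightest genes of each pathway list and the 4 genes nearest to VEGFA, NRP1 and ADM. The members and lists were chosen with earlier results of these data known. Alternatives were other scalings, floors, filters, fold rules and tests, and each shRNA array left out. Promoter sequences are from RefSeq (GRCh38.p14). Figures were drawn with matplotlib 3.10.9.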

Additional observations from a re-analysis of the deposited data

How the results depend on the processing

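The count of tested members below pLKO in all 3 comparisons was 4 of 9, against 20% of all tested probe sets. It was 4 to 6 with 1 shRNA array left out, against 26.6% to 32%. With an upper quartile filter it was 2 of the 6 that passed. The share of all probe sets under that filter is not given here, so this count has no background. In IBC-II alone (without IBC-I and IBC-III, chosen after seeing the data) it was 7, against 48.7%. The 1 that was higher (background 19.4%) became 1 to 2 with 1 array left out (26% to 31.9%) and 2 in IBC-II alone (51.1%). The 1 that was at least 3-fold lower (0.179%) became 4 with the values as deposited (0.352%) and 2 with median scaling (0.33%). With a floor of 64 or the upper quartile filter, for which the share of all probe sets is not given here, it became 0. In IBC-II alone it became 5 (1.53%). With 1 array left out it became 1 to 4 (0.348% to 1%), the 4 being without IBC-III (0.502%). limma called 0 of all tested probe sets, with 206 at an unadjusted p under 0.05, and 435 with a floor of 64 and 1326 without a filter, of which 402 and 1221 had the same difference on all 3 shRNA arrays because these were at the floor. With a floor of 64 it called 2 of the 9, VEGFA 211527_x_at (-1.48) and ADM (-0.64), both at the floor on all 3 shRNA arrays, and it called 0 of the 9 under the other settings. The mean difference of VEGFC, 0.19, reversed to -0.11 with the values as deposited, where the median of all tested probe sets also moved. Over all settings in which each was tested, the mean log2 difference ranged from -3.56 to -1.88 for VEGFA 210512_s_at, from -2.51 to -0.64 for ADM and from 0.02 to 1.70 for PGF. No analysis that pairs each shRNA array with its own control array was possible. With 1 control array, the groups share fewer than 2 replicate numbers to use as a block. The methods' t-test pairs every shRNA array with that same pLKO array. Signal over background limits NRP1, the second PGF probe set and DCD to values near or under the floor.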
